A study of Mus musculus with 6 samples.

Results

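The genes described here encode interleukins, colony-stimulating factors, interferon-gamma and TNF family ligands, their receptors, and parts of the inflammasome and of NF-κB. They were taken by symbol from a written list. Of the 45 genes named, 42 were measured by 77 probe sets that the array annotation gives to a single gene, out of 18193 genes measured in this way. The other 3 genes are Il1rl1, Il2rg and Nfkb1. Each gene was taken by the probe set with the highest mean over the 6 arrays, and the remaining 35 probe sets are described after the brightest ones. SMC-IRF9-TG mice carry a full-length mouse IRF9 cDNA driven in smooth muscle by the mouse SM22α promoter, and NTG mice are their non-transgenic controls. The strain of both groups is C57BL/6 by the labels, with the substrain C57BL/6J named for the transgenic mice in the methods, and the mice are stated to be males aged 10 to 12 weeks. Carotid arteries of both groups were injured with a wire and collected 14 days later, so there is no uninjured artery in the comparison. Each group had 3 pools of 3 to 5 vessels, and 400 ng of RNA from each pool was put on its own Affymetrix array. The study made several transgenic lines and used the one of highest IRF9 expression in its later work, and the labels do not say which line gave these vessels or which animals were pooled, so a p-value speaks only of the spread from pool to pool.

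Interleukins and TNF family ligands are secreted or membrane-bound messengers that act on receptors of neighbouring cells. Receptors of interleukin-1 and TNF pass their signal to NF-κB, a dimer of Rel proteins that is held in the cytoplasm by IκB proteins and moves to the nucleus once these are degraded. Receptors of interleukin-6, interleukin-10, interleukin-13, GM-CSF and interferon-gamma signal instead through JAK kinases and STAT proteins. IRF9 itself is the DNA-binding subunit of ISGF3, the complex that type I interferon sends to interferon-stimulated response elements in DNA. In injured arteries these messengers are known to be made by smooth muscle cells, endothelium and infiltrating leukocytes, and interleukin-1 and TNF are known to activate smooth muscle cells.

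Values are log2 levels made with RMA, and a difference is the mean of the SMC-IRF9-TG pools minus the mean of the NTG pools. A gene is said to have risen or fallen only where limma gave an adjusted p under 0.05 over all 45037 probe sets. A group mean under 2.50, the mean lower quartile of the 6 arrays, is called near background and no fold is given for it. Irf9, the gene carried by the transgene, read 5.46, 5.41 and 5.58 in the SMC-IRF9-TG pools, against 4.75, 5.43 and 5.36 in the NTG pools (probe set 1421322_a_at, difference 0.30, standard error 0.23, adjusted p = 0.436). Where in the transcript that probe set lies is not known here, so these values do not check the labels. The deposited columns did not share a distribution, with array medians from 3.42 to 3.66, lower quartiles of 2.33 to 2.41 in the SMC-IRF9-TG pools and 2.57 to 2.66 in the NTG pools, and lowest values of 1.07 to 1.16 in SMC-IRF9-TG and 0.43 to 0.47 in NTG. Quantile normalization of these columns took the probe sets that rose to 547, against 1069 as deposited. The signal of the Actb control at the 3′ end exceeded that at the 5′ end by 1.56 to 2.50 in the SMC-IRF9-TG pools, against 2.21 to 7.09 in the NTG pools, with the highest value in NTG pool 2. Xist, which is transcribed in female cells, read 2.94 to 3.72 in the SMC-IRF9-TG pools, against 9.94, 9.50 and 4.08 in the NTG pools, although males are stated. All 10 smooth muscle markers overlapped between the groups, and their summed log2 level was 87.0 to 90.8 in SMC-IRF9-TG and 83.7 to 91.7 in NTG, with 5 of them above 8 on every array.

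Macrophage markers differed between the groups. Of 17 measured, 15 rose in SMC-IRF9-TG arteries, and the other two were Itgam, near background in both groups, and Laptm5. Their summed log2 level was 120.7 to 125.5 in the SMC-IRF9-TG pools and 57.4 to 67.8 in the NTG pools, and 1 marker was near background in SMC-IRF9-TG and 2 in NTG. Of 7 fibroblast markers 5 rose, with sums of 64.5 to 67.4 in SMC-IRF9-TG and 51.5 to 54.0 in NTG. None of 10 neutrophil markers passed limma. At an unadjusted p under 0.05, 4 were higher and 0 lower, against 14.9% and 9.81% of all genes. Their sum spanned 35.5 to 56.3 in the SMC-IRF9-TG pools and 35.4 to 35.9 in the NTG pools. T cell markers summed to 34.6 to 39.6 in SMC-IRF9-TG and 33.7 to 36.6 in NTG, and 1 of 10, Foxp3, fell. Of 10 endothelial markers 2 rose, Tie1 (difference 1.75) and Erg (1.37), with a median of 0.88 and sums of 65.0 to 67.8 in SMC-IRF9-TG and 55.5 to 65.7 in NTG. Of 6 NK cell markers 1 rose (Klrd1, difference 2.66), while 3 differences were positive and 3 negative, with a median of -0.03. Of 8 mast cell and basophil markers 1 rose (Kit, 2.01), while 6 differences were negative and the median was -0.21. None of 4 B cell markers passed (0 at an unadjusted p under 0.05). Many of the genes below are known to be expressed in leukocytes. A different number of cells of a type cannot be told apart from a different amount of RNA per cell in whole arteries, and the part that these cell types had in the results was not tested.

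**Figure D1:**
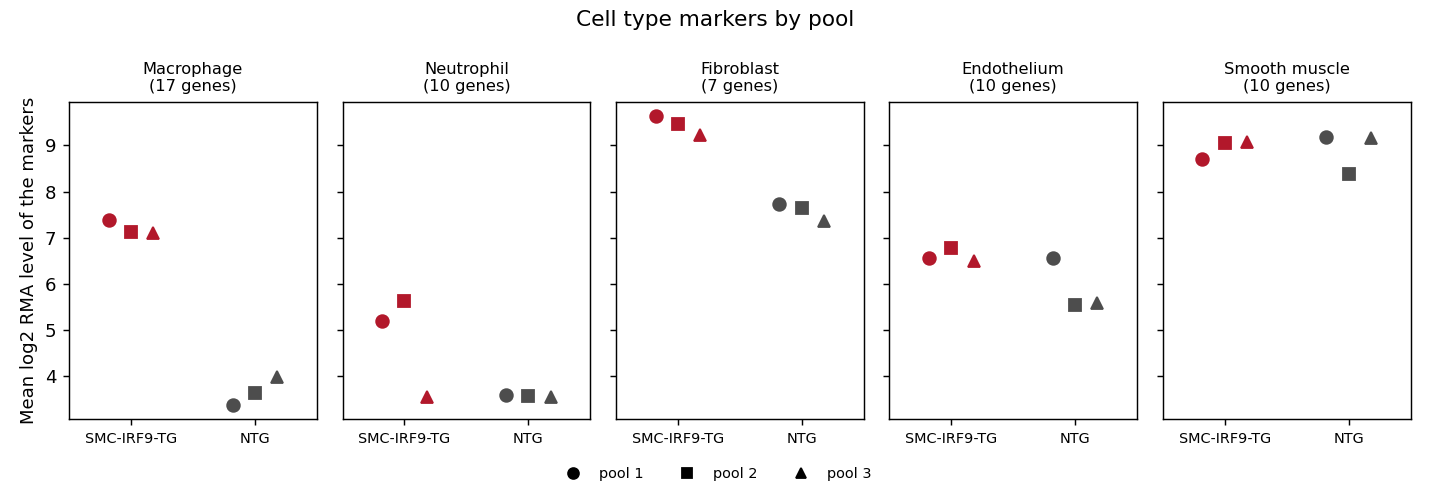
Mean log2 RMA level of the marker genes of 5 cell types, a panel for each, with SMC-IRF9-TG left of NTG and a symbol for each pool. Macrophage markers average 7.10 to 7.38 in SMC-IRF9-TG and 3.38 to 3.99 in NTG, fibroblast markers lie apart as well, neutrophil markers are high in SMC-IRF9-TG pools 1 and 2 (5.19 and 5.63) and not in pool 3 (3.55), and smooth muscle markers overlap.

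Promoter sequences are shown first for the elements that NF-κB and ISGF3 are known to bind. NF-κB was chosen because parts of it belong to the set, and ISGF3 because IRF9 is its subunit. Whether either factor acts on these genes was not tested. RefSeq promoters (assembly GRCm38.p6, 250 bases before to 50 bases after a start) were matched for 36 of the 45 genes, with 47 promoters in all, and for 6 of the 10 genes that rose or fell. The κB pattern GGGANNTTCC was searched on both strands and was held by 5 of the 47 promoters (10.6%), against 482 of all 32851 promoters (1.47%). These 5 promoters belonged to Il6, Nfkbia, Ifngr2 and, with 2 of them, Nfkb2. The second Nfkb2 promoter holds its match from base -225 to -216, which is the same site as a further match from base 11 to 20 of the first, and it is not printed because it lies after the first start. The pattern GAAANNGAAA, a pair of the core repeats of an interferon-stimulated response element, was held by 2 of the 47 promoters (4.26%), against 1131 of all promoters (3.44%). No gene of the set held both patterns. Il6 was the only one of the 6 matched genes that rose or fell to hold either. The other genes are printed beside it with 1 stretch each, chosen after their values were seen, since none of them passed the test. Each stretch is written 5′ to 3′ along the gene's own strand with the match in capitals, base -1 is the base before the start, and a match describes the letters and not a bound site.
Il6, chr5:30013050-30013099, plus strand, κB match from base -44 to -35: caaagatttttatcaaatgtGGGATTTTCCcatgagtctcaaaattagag
Nfkbia, chr12:55492648-55492696, minus strand, κB match from base -29 to -20: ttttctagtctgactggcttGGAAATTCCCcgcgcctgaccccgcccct
Ifngr2, chr16:91546964-91547013, plus strand, κB match from base -75 to -66: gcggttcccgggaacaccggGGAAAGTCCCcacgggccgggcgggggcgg
Nfkb2, chr19:46305445-46305488, plus strand, κB match from base -236 to -227: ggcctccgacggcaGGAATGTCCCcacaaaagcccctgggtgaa
Tnfrsf1b, chr4:145246871-145246900, minus strand, response element pattern from base -10 to -1: cctagctcctggcctgagggTTTCGCTTTC
Tnfsf13b, chr8:10006597-10006632, plus strand, response element pattern from base -16 to -7: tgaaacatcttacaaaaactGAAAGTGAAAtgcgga

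Of the 42 genes measured, 8 rose and 2 fell in SMC-IRF9-TG arteries, which is 23.8% of them, against 3.62% of all 18193 genes (3.11% rose and 0.511% fell) and 2.75% of all 45037 probe sets (2.37% rose and 0.373% fell). The genes that rose were Il1b, Il6, Il13ra1, Csf2ra, Csf2rb, Il10ra, Il10rb and Ifngr1, and those that fell were Il10 and Tnfsf10. The median difference over the 42 genes was 0.45, against -0.05 over all genes. The 3 SMC-IRF9-TG pools lay wholly above the NTG pools for 18 of the 42 genes and wholly below for 4, where 16.1% of all genes did so in each direction. With each array centred on its median, 10 genes rose and 1 fell. An exact 2-sided permutation test of 3 pools against 3 cannot give a p below 0.1, the value it gave for each of the 10 genes. With the methods' t-test none of the 42 genes passed after adjustment and 18 had an unadjusted p under 0.05, as did 19.7% of all genes.

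**Figure D2:**
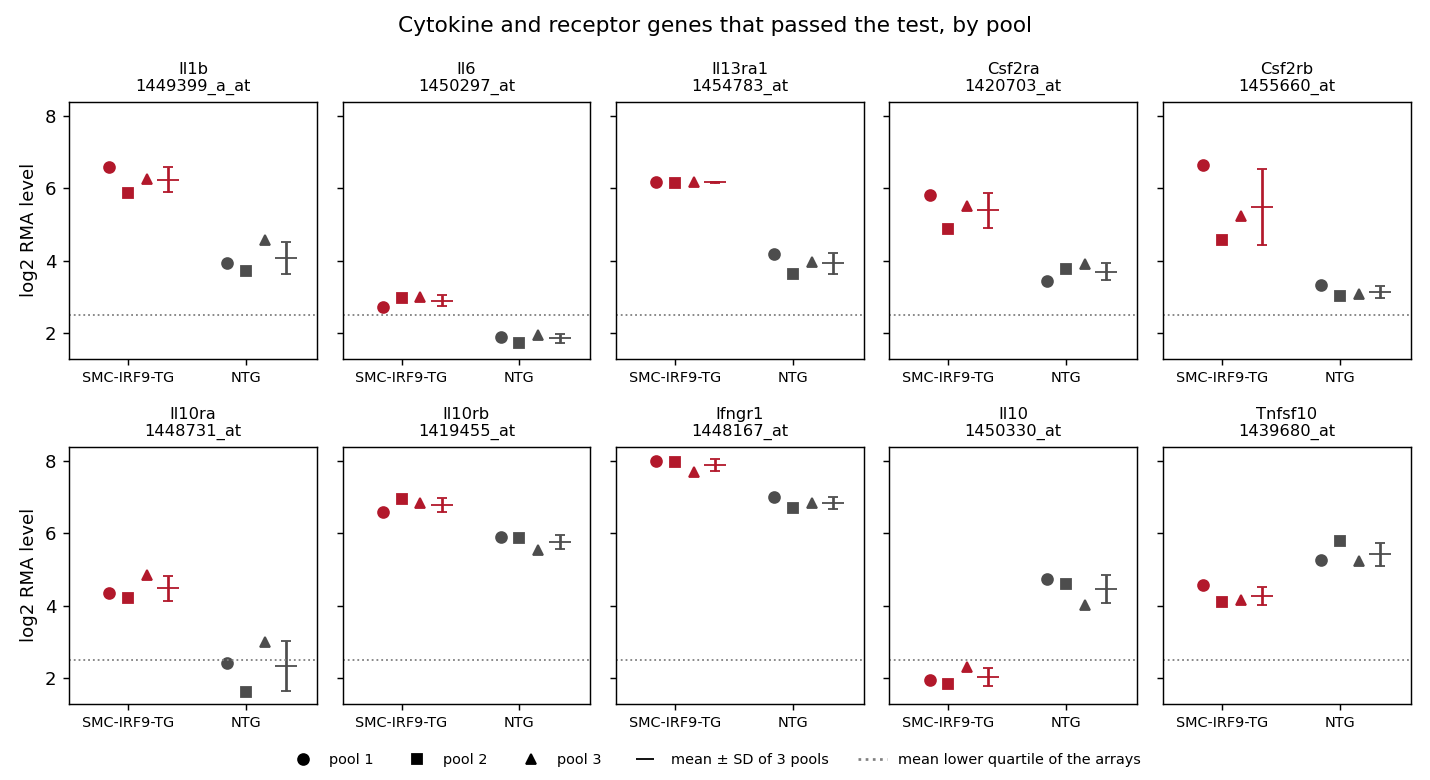
Log2 RMA level of the 10 genes that passed limma's test, a panel for each, with SMC-IRF9-TG left of NTG, a symbol for each pool and a bar for the group mean ± SD of 3 pools. The groups do not overlap for any of the 10, Il10 and Tnfsf10 are the only ones lower in SMC-IRF9-TG, and the dotted line marks the near-background limit of 2.50.

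The clearest changes among the ligands ran in opposite directions for Il1b and Il10. Il1b, which encodes the secreted interleukin-1β released after cleavage by caspase-1, read 6.58, 5.87 and 6.27 in SMC-IRF9-TG pools 1, 2 and 3, against 3.94, 3.72 and 4.56 in the NTG pools (probe set 1449399_a_at). Every SMC-IRF9-TG pool was above every NTG pool. Il1b rose by 2.17 (standard error 0.28, adjusted p = 0.00787), a 4.5-fold difference, and passed with each pool left out in turn (adjusted p from 0.0101 to 0.0433). Il10, which encodes a cytokine that restrains inflammatory gene expression in macrophages, read 1.95, 1.82 and 2.31 in the SMC-IRF9-TG pools, against 4.75, 4.61 and 4.02 in the NTG pools (1450330_at). It was near background in all SMC-IRF9-TG pools and clearly above it in all NTG pools. Il10 was lower in SMC-IRF9-TG (difference -2.43, standard error 0.25, adjusted p = 0.00311) and passed with each pool left out (0.00473 to 0.0258). Il1b, Il6 and Il10 also stand on the gene list that the study drew from these same arrays, so that list is no independent evidence of their direction.

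Il6 and Tnfsf10 passed by a smaller margin. Il6, a cytokine with the κB match shown above, read 2.72, 2.95 and 3.00 in the SMC-IRF9-TG pools, against 1.89, 1.72 and 1.95 in the NTG pools (1450297_at). All NTG pools were near background and the SMC-IRF9-TG pools lay just above the limit. Il6 was higher in SMC-IRF9-TG (difference 1.03, standard error 0.19, adjusted p = 0.0294), but with values raised to the lower quartile of their array the difference was 0.27 (adjusted p = 0.108). The call was also lost without NTG pool 1 and without each SMC-IRF9-TG pool in turn (adjusted p from 0.0696 to 0.141). Tnfsf10, which encodes TRAIL, a ligand of death receptors that type I interferon is known to induce, read 4.56, 4.09 and 4.15 in SMC-IRF9-TG, against 5.27, 5.78 and 5.23 in NTG (1439680_at). It fell 2.23-fold (difference -1.16, standard error 0.23, adjusted p = 0.0408), and the SMC-IRF9-TG pools were all below the NTG pools. This call was kept without NTG pool 3 (adjusted p = 0.0455) and lost without each of the other 5 pools (0.0538 to 0.182). Its other probe sets differed by 0.14 (1459913_at, adjusted p = 0.709) and -0.68 (1420412_at, adjusted p = 0.142), and the average of all 3 by -0.56 (adjusted p = 0.0991).

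The remaining 15 of the 19 ligands did not pass, and 14 of the 19 overlapped between the groups. Tnf itself, the founding ligand of its family, read 3.11, 3.21 and 3.24 in the SMC-IRF9-TG pools, against 3.55, 3.21 and 3.66 in the NTG pools (difference -0.28, 95% interval -0.73 to 0.17, adjusted p = 0.405). Il1a, the cell-associated form of interleukin-1, differed by -0.21 (-0.65 to 0.24), and Il1rn, the antagonist that blocks their receptor, by 0.21 (-0.80 to 1.22). The groups overlapped for Tnf, Il1a and Il1rn alike. Il18, another substrate of caspase-1, differed by 0.43 and Il33, an alarmin of the interleukin-1 family, by 0.23. Among ligands that use gp130, Il11 differed by -0.29, Lif by 0.30 and Osm by 0.19, all with overlapping pools. Il15, a growth factor of NK and memory T cells, differed by -0.09, Tnfsf13b, the B cell survival factor BAFF whose promoter is printed above, by 0.23, and Csf3, the neutrophil growth factor G-CSF, by -0.19. Ifng, which encodes interferon-gamma, read 1.65, 1.63 and 1.74 in SMC-IRF9-TG, against 2.32, 3.10 and 1.94 in NTG, and the groups did not overlap, but both means were near background and the adjusted p was 0.174. Il12b, a shared chain of interleukins 12 and 23, Csf2, which encodes GM-CSF, and Tnfsf11, the osteoclast factor RANKL, were near background in both groups as well, so that no size can be read for these 4 ligands.

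By their brightest probe sets, 15 of the 16 receptors had the higher mean in SMC-IRF9-TG arteries, though most did not pass. Of the 16 measured, 6 rose and none fell, against 3.11% and 0.511% of all genes. The SMC-IRF9-TG pools lay above the NTG pools for 13, against 16.1% of all genes, with overlap only in Il1r2, Il6st and Fas. The median difference of the receptors was 1.04, against 0.02 for the 19 ligands and -0.05 for all genes. More than 1 probe set measured 12 receptors. Among these, the next brightest had the opposite sign for Il1r1, Il10rb, Il6ra, Osmr, Il4ra and Tnfrsf1b. The ligands were dimmer, with a median level of 3.16, against 5.23 for the receptors. A group mean was near background for 6 ligands and 1 receptor. Low values are compressed, so the smaller difference of the ligands does not show that they changed less. At an unadjusted p under 0.05, 14 receptors were higher and 0 lower by limma, against 14.9% and 9.81% of all genes, while the methods' t-test passed 11 before adjustment (19.7% of all genes) and 0 after it. The macrophage markers given above differed between the same pools, and their part in the receptor levels was not tested.

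**Figure D3:**
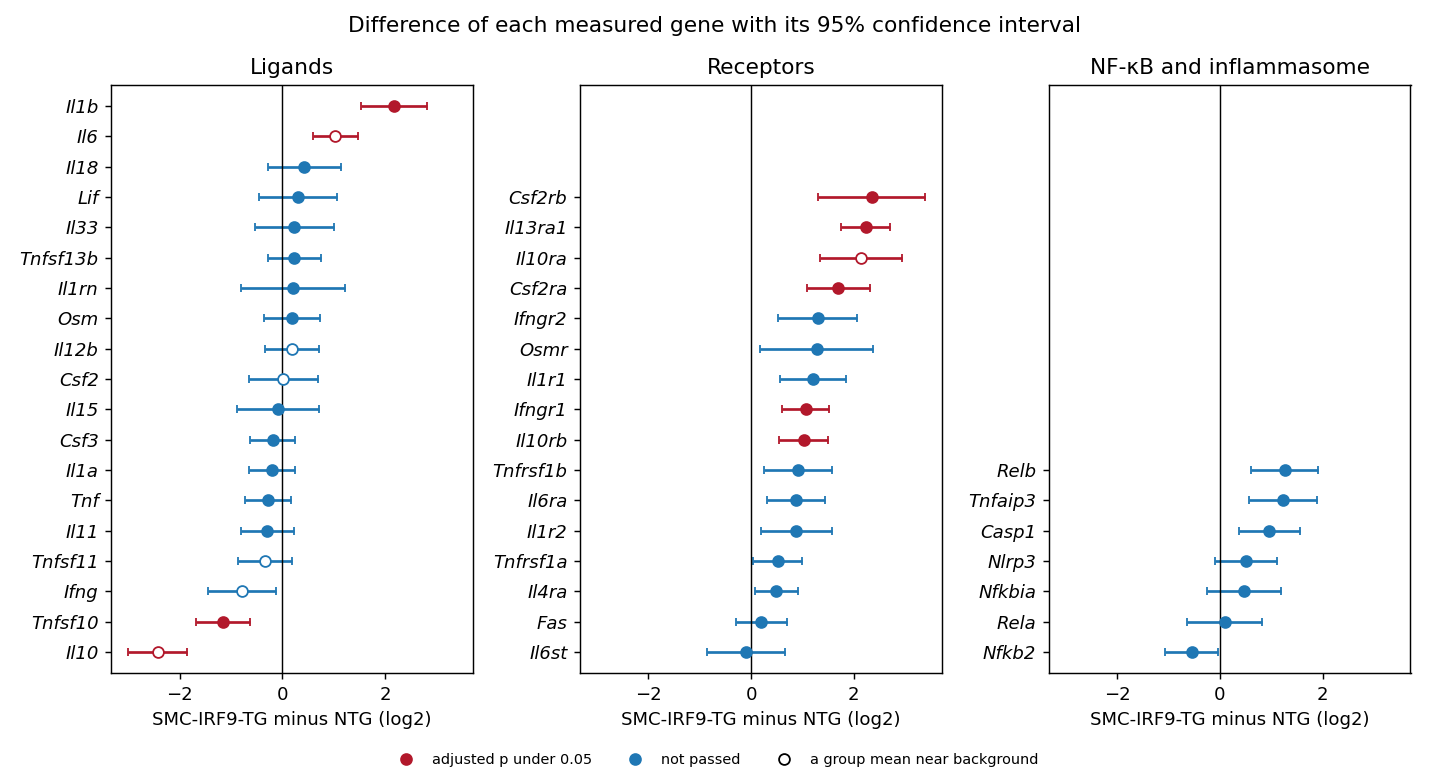
Log2 difference of each of the 42 genes (SMC-IRF9-TG minus NTG) in panels for ligands, receptors and signalling genes, with 95% intervals from limma, red for genes that passed and open points where a group mean was near background. Each gene is shown by its brightest probe set only. All but 1 of the 16 receptors lie right of 0 with a median of 1.04, while the 19 ligands lie on both sides with a median of 0.02. The ligands were dimmer, with a median level of 3.16, against 5.23 for the receptors.

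Il13ra1, the chain that joins Il4ra in the type 2 receptor for interleukins 4 and 13, had the lowest adjusted p of the set. It read 6.16, 6.14 and 6.17 in the SMC-IRF9-TG pools, against 4.19, 3.63 and 3.97 in the NTG pools (1454783_at). The 3 SMC-IRF9-TG values were almost the same and lay far above the NTG range. Il13ra1 rose 4.68-fold (difference 2.23, standard error 0.21, adjusted p = 0.00189) and passed with each pool left out in turn (0.00418 to 0.0166). It has 4 further probe sets, of which 1427164_at (difference 1.06, adjusted p = 0.027) and 1427165_at (1.47, adjusted p = 0.0144) rose too. Probe set 1451775_s_at differed by 0.90 (adjusted p = 0.0917), and 1425625_at, near background in both groups, differed by 0.04. Its partner Il4ra, the signalling chain for interleukin-4, read 5.06, 4.92 and 4.91 in SMC-IRF9-TG, against 4.40, 4.37 and 4.65 in NTG, and did not pass (difference 0.49, adjusted p = 0.179). The other Il4ra probe sets differed by -0.60 (1447858_x_at, all SMC-IRF9-TG pools below the NTG pools, adjusted p = 0.234) and 0.12 (1423996_a_at).

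Both chains of the interleukin-10 receptor rose where the ligand fell. Il10ra, the ligand-binding chain, read 4.36, 4.21 and 4.86 in SMC-IRF9-TG, against 2.41, 1.61 and 2.99 in NTG (1448731_at). The mean of the NTG pools was near background, although NTG pool 3 was above the limit. Il10ra was higher in SMC-IRF9-TG (difference 2.14, standard error 0.35, adjusted p = 0.019), as it was by probe set 1437808_x_at (difference 1.03, adjusted p = 0.0267), while its dimmest probe set, 1456173_at, differed by -0.51 (adjusted p = 0.295). Leaving out NTG pool 1 or any SMC-IRF9-TG pool lost the call of the brightest probe set (0.0672 to 0.0789). Il10rb, the accessory chain that also serves interleukin-22 and the interferon-lambda family, read 6.58, 6.96 and 6.84 in SMC-IRF9-TG, against 5.89, 5.88 and 5.54 in NTG (1419455_at). These groups lay apart without overlap. Il10rb rose 2.03-fold (difference 1.02, standard error 0.20, adjusted p = 0.04) and kept the call without NTG pool 2 (0.0449) and lost it without each other pool (0.0571 to 0.182). Its second probe set, 1429959_at, differed by -0.53 in the other direction (adjusted p = 0.18), and the average of both by 0.25 (adjusted p = 0.383).

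Both chains of the GM-CSF receptor rose as well, with the ligand near background in both groups. Csf2ra, the GM-CSF binding chain, read 5.81, 4.87 and 5.50 in SMC-IRF9-TG, against 3.43, 3.76 and 3.89 in NTG (1420703_at), so that all SMC-IRF9-TG pools were higher. It rose 3.25-fold (difference 1.70, standard error 0.27, adjusted p = 0.0177), but not without NTG pool 1, SMC-IRF9-TG pool 1 or SMC-IRF9-TG pool 3 (0.0684 to 0.079). Csf2rb, the signalling chain shared with the receptors of interleukins 3 and 5, read 6.64, 4.58 and 5.23 in SMC-IRF9-TG, against 3.31, 3.03 and 3.06 in NTG (1455660_at). SMC-IRF9-TG pool 1 was the highest and the spread among SMC-IRF9-TG pools was wide. Csf2rb rose 5.1-fold (difference 2.35, standard error 0.46, adjusted p = 0.0356), and it passed without SMC-IRF9-TG pool 1 (0.0386) or pool 2 (0.0365) but not without SMC-IRF9-TG pool 3 or any NTG pool (0.0646 to 0.0937). The dimmer probe sets differed by 0.35 for Csf2ra (1420704_at, adjusted p = 0.42) and 1.14 for Csf2rb (1421326_at, adjusted p = 0.0922). The average of both probe sets differed by 1.03 for Csf2ra (adjusted p = 0.0571) and 1.74 for Csf2rb (adjusted p = 0.0463). With values raised to the lower quartile of their array, neither Csf2ra (0.0504) nor Csf2rb (0.0763) passed. With array weights Csf2rb did not pass (0.0642), while Csf2ra did (0.0173). A further probe set that the annotation gives to Csf2rb together with its near-identical neighbour Csf2rb2 was not used, and how far such near-identical genes share the probes above is not known here.

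Interferon-gamma acts through a receptor of a ligand-binding chain, Ifngr1, and a signalling chain, Ifngr2. Ifngr1 read 8.0, 7.99 and 7.70 in SMC-IRF9-TG, against 7.0, 6.69 and 6.83 in NTG (1448167_at), and the groups were well separated. It rose 2.08-fold (difference 1.06, standard error 0.20, adjusted p = 0.0308), but not without NTG pool 1 or any one SMC-IRF9-TG pool (0.0585 to 0.15). Ifngr2, with a κB match in its promoter, read 4.90, 5.71 and 6.03 in SMC-IRF9-TG, against 3.73, 4.51 and 4.50 in NTG (1423557_at). All SMC-IRF9-TG pools were higher but varied among themselves, and the difference of 1.30 did not pass (95% interval 0.52 to 2.07, adjusted p = 0.0856). Its other probe set, 1423558_at, differed by 0.82 (adjusted p = 0.141), again with all SMC-IRF9-TG pools higher.

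No receptor of interleukin-1 or of the gp130 family passed the test, and the probe sets of several differed in sign. Il1r1, the signalling receptor of interleukin-1, read 7.65, 7.34 and 7.40 in SMC-IRF9-TG, against 6.23, 5.75 and 6.82 in NTG (1448950_at, difference 1.20, 95% interval 0.56 to 1.84, adjusted p = 0.0659). NTG pool 3 was the nearest to the SMC-IRF9-TG pools, and without it Il1r1 passed (adjusted p = 0.0267). Its other probe set, 1459777_at, was near background in both groups and differed by -0.62 (adjusted p = 0.343). Il1r2, the decoy receptor, read 4.31, 3.83 and 3.24 in SMC-IRF9-TG, against 2.60, 2.89 and 3.26 in NTG (difference 0.88, adjusted p = 0.153), with SMC-IRF9-TG pool 3 inside the NTG range. The 10 neutrophil markers averaged 5.19, 5.63 and 3.55 in SMC-IRF9-TG pools 1, 2 and 3, against 3.59, 3.58 and 3.54 in the NTG pools. Single markers did not all follow this order, as Csf3r and Cxcr2 were lowest in SMC-IRF9-TG pool 2. The part of neutrophils in the Il1r2 values was not tested. Osmr, the oncostatin M receptor, read 8.62, 7.67 and 7.60 in SMC-IRF9-TG, against 7.13, 7.36 and 5.55 in NTG (1418674_at, difference 1.28, adjusted p = 0.177). NTG pool 3 lay far below the other NTG pools for Osmr by this probe set. By 1418675_at Osmr differed by -0.49 with all SMC-IRF9-TG pools below the NTG pools (adjusted p = 0.236), and by 1459217_at, near background in both groups, by 0.12. Il6ra, the interleukin-6 binding chain, differed by 0.88 (adjusted p = 0.104) without overlap, and by -0.21 by 1422270_a_at. Il6st, the shared signalling chain gp130, read 9.03, 8.94 and 8.87 in SMC-IRF9-TG and 9.43, 9.48 and 8.23 in NTG (difference -0.10, 95% interval -0.86 to 0.65), so that NTG pools 1 and 2 were above every SMC-IRF9-TG pool. Its 3 further probe sets differed by -0.04, 0.64 and -0.37 and overlapped between the groups.

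Of the TNF receptors, Tnfrsf1a, the widely expressed receptor with a death domain, differed by 0.52 (adjusted p = 0.207), and Tnfrsf1b, the receptor known mainly from leukocytes and endothelium, by 0.91 (adjusted p = 0.131). The SMC-IRF9-TG pools were above the NTG pools for both. Tnfrsf1b read 6.15, 5.39 and 6.07 in SMC-IRF9-TG, against 4.54, 4.99 and 5.35 in NTG, and its second probe set, 1448951_at, differed by -0.58. Fas, the death receptor of Fas ligand, overlapped between the groups (difference 0.20, 95% interval -0.30 to 0.69).

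None of the 7 measured signalling genes passed limma's test. At an unadjusted p under 0.05, 3 were higher and 1 was lower, against 14.9% and 9.81% of all genes. The methods' t-test passed 3 in all before adjustment, against 19.7% of all genes, and 0 after it. The Rel subunits differed in sign and size. Relb, which pairs with p52 in the non-canonical branch of NF-κB, read 5.25, 5.03 and 5.54 in SMC-IRF9-TG, against 3.81, 3.63 and 4.61 in NTG (1417856_at, difference 1.26, 95% interval 0.60 to 1.91, adjusted p = 0.0614). All SMC-IRF9-TG pools were higher for Relb, and it passed without NTG pool 3 (adjusted p = 0.0217). Nfkb2, the precursor of p52, read 5.61, 5.41 and 5.63 in SMC-IRF9-TG, against 6.41, 5.73 and 6.15 in NTG (1429128_x_at, difference -0.55, adjusted p = 0.203), with all SMC-IRF9-TG pools lower, but its other probe set, 1425902_a_at, differed by 0.46. Rela, the transactivating subunit of the canonical dimer, read 7.61, 7.52 and 7.88 in SMC-IRF9-TG and 8.12, 6.85 and 7.77 in NTG (difference 0.09, 95% interval -0.65 to 0.82), so the NTG pools spanned the SMC-IRF9-TG range.

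The inhibitors of the pathway, which are themselves known as NF-κB targets, did not pass either. Nfkbia, which encodes IκBα and has a κB match in its promoter, read 10.66, 9.81 and 9.61 in SMC-IRF9-TG and 9.34, 9.37 and 9.99 in NTG (1420088_at, difference 0.46, adjusted p = 0.392). The groups overlapped because NTG pool 3 exceeded both SMC-IRF9-TG pools 2 and 3. The 4 other Nfkbia probe sets differed by -0.18, 0.29, 0.06 and -0.58, all with overlap. Tnfaip3, the ubiquitin-editing enzyme A20 that ends NF-κB signalling, read 6.77, 6.02 and 6.25 in SMC-IRF9-TG, against 5.55, 5.14 and 4.67 in NTG (1433699_at, difference 1.23, 95% interval 0.57 to 1.89, adjusted p = 0.0659). Its groups were apart on this probe set, but the other one, 1450829_at, differed by -0.01. Of the inflammasome genes, Casp1, the protease that matures interleukin-1β, differed by 0.96 (adjusted p = 0.0912) without overlap, and Nlrp3, the sensor that recruits it, differed by 0.51 (adjusted p = 0.281).

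More than 1 probe set measured 21 of the 42 genes, which gave 35 further probe sets. Of these 3 passed, all higher (2.75% of all probe sets passed), and they belong to Il10ra and Il13ra1, 2 of the 6 called genes with more than 1 probe set. The next brightest probe set had the same sign as the brightest in 8 of the 21 genes. With the next brightest probe set in place of the brightest, 2 genes rose and 0 fell. The sign then differed for Il10rb (-0.53) and Tnfsf10 (0.14) among the genes that passed, and for Il1r1 (-0.62), Osmr (-0.49) and Tnfaip3 (-0.01) among those that differed by at least 1. Of the ligands not yet given, the further probe sets differed by 0.41 and -0.08 for Il1rn, -0.42 for Lif, -0.26 and -0.49 for Tnfsf13b, -0.41 for Il12b and -0.05 for Tnfsf11. Probe sets may lie in different transcripts or parts of a transcript, and their positions are not known here.

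**Figure D4:**
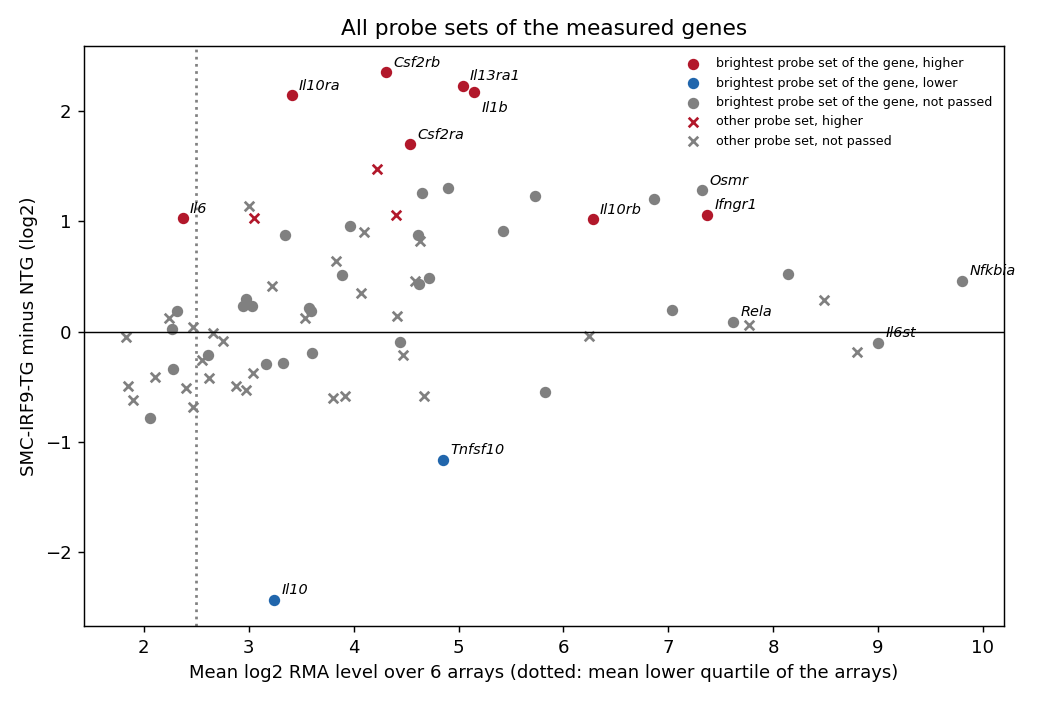
Log2 difference (SMC-IRF9-TG minus NTG) against the mean log2 level over the 6 arrays for all 77 probe sets, with circles for the brightest probe set of a gene and crosses for the other 35. The 3 red crosses are the further probe sets of Il10ra and Il13ra1 that passed, and the dotted line marks the near-background limit of 2.50.

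The wider pathways were read from 6 further lists of genes, with a median difference over all genes of -0.05 and 3.11% of all genes rising. At an unadjusted p under 0.05, 14.9% of all genes were higher and 9.81% lower by limma, and 19.7% passed the methods' t-test. These shares stand beside the counts of every list below. The methods' t-test passed 0 genes of any list after adjustment and 5, 6, 9 and 11 of the 4 lists with a gene that rose before it, in the order NF-κB components, NF-κB targets, cell death genes and receptors. Of 28 other components of NF-κB signalling, 2 rose and 0 fell (10 higher and 0 lower at an unadjusted p under 0.05), with a median of 0.42. Myd88, the adaptor of interleukin-1 and Toll-like receptors, read 6.92, 7.11 and 6.74 in SMC-IRF9-TG, against 5.76, 5.92 and 5.97 in NTG (difference 1.04, standard error 0.19, adjusted p = 0.0309). Nfkbie, which encodes IκBε, read 5.45, 4.11 and 4.0 in SMC-IRF9-TG, against 2.57, 3.03 and 2.67 in NTG (difference 1.76, standard error 0.38, adjusted p = 0.0491). The groups were apart for both, but Myd88 was lost without NTG pool 1 or any SMC-IRF9-TG pool (0.0825 to 0.151) and Nfkbie without any one of the 6 pools (0.0594 to 0.124). The second Nfkbie probe set, 1431843_a_at, differed by 0.33 (adjusted p = 0.418), and the average of both by 1.05 (adjusted p = 0.071).

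Of 22 known NF-κB target genes outside the set, 4 rose and 0 fell by their brightest probe sets (5 higher and 1 lower at an unadjusted p under 0.05), with a median of 0.49. By these probe sets Mmp9 differed by 0.05 and Sod2 by 0.11. The study's gene list from the same arrays gives Mmp9 as higher and Sod2 as lower, each by another probe set. That list also gives Ccl2 as higher by the probe set used here, and Ccnd1 as higher by one not used here for it. It is no independent evidence of their direction. Ptgs2, which encodes the inducible cyclooxygenase COX-2, read 7.93, 8.02 and 7.63 in SMC-IRF9-TG, against 5.82, 5.85 and 5.35 in NTG, and rose 4.56-fold (difference 2.19, adjusted p = 0.00272), with a difference of 0.39 by its second probe set, 1417263_at (adjusted p = 0.319), and of 1.29 by the average of both (adjusted p = 0.0141). Cd83, a surface protein of activated dendritic cells and B cells, rose 5.3-fold (difference 2.41, adjusted p = 0.00854). Both passed with each pool left out in turn, up to an adjusted p of 0.0235 for Ptgs2 and 0.0458 for Cd83. Ccl2, the monocyte-attracting chemokine, rose 2.51-fold (difference 1.33, adjusted p = 0.0108) and Ccnd1, the G1 cyclin D1, 2.35-fold (difference 1.23, adjusted p = 0.013). Each lost its call without any one SMC-IRF9-TG pool (Ccl2 0.0507 to 0.0654, Ccnd1 0.0588 to 0.0765). The other Ccnd1 probe sets differed by 2.26 (1417420_at, adjusted p = 0.00993) and 1.06 (1417419_at, adjusted p = 0.0748), and the average of its probe sets by 1.52 (adjusted p = 0.00355).

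Of 18 other inflammasome and cell death genes, 1 rose and 0 fell (8 higher and 1 lower at an unadjusted p under 0.05), with a median of 0.36. It was Pycard, the adaptor ASC that links Nlrp3 to caspase-1, with 6.29, 6.71 and 6.39 in SMC-IRF9-TG, against 5.00, 4.55 and 5.41 in NTG (difference 1.48, standard error 0.26, adjusted p = 0.0247). Without NTG pool 1 or any SMC-IRF9-TG pool it did not pass (0.0772 to 0.123). The rise was measured by this probe set alone, as the other Pycard probe sets differed by -0.69 (1446926_at, adjusted p = 0.179) and -0.48 (1417347_at, near background in both groups), and the average of all 3 differed by 0.10 (adjusted p = 0.69). Of 20 JAK, STAT and SOCS genes and related phosphatases none passed limma. At an unadjusted p under 0.05, 5 were higher and 0 lower, against 14.9% and 9.81% of all genes. The methods' t-test passed 5 before adjustment, against 19.7% of all genes, and 0 after it. The median difference was 0.22, with 16 positive and 4 negative. The 2 of highest level were the phosphatase genes Ptpn11 and Ptpn2, which differed by 0.15 and 0.04. Stat3 and Jak1 are named because the study's gene list from the same arrays gives both as higher. That list has Stat3 by the probe set used here and Jak1 by another. Here Stat3 differed by 1.20 and Jak1 by 0.72, and neither passed limma (adjusted p = 0.0811 and 0.13).

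Of 37 other interleukin and TNF family ligands none passed limma, and their median difference was -0.20. At an unadjusted p under 0.05, 2 were higher and 4 lower, against 14.9% and 9.81% of all genes. The methods' t-test passed 8 before adjustment, against 19.7% of all genes, and 0 after it. The SMC-IRF9-TG pools lay wholly below the NTG pools for 11 of them and wholly above for 0, where 16.1% of all genes did so in each direction. Of the 37, 17 were near background in at least 1 group, and their median level was 2.88, against 4.40 for all genes. Lower quartiles of the arrays were 2.33 to 2.41 in SMC-IRF9-TG and 2.57 to 2.66 in NTG, so the dim end lay lower in SMC-IRF9-TG. The 16.1% covers genes of all levels, and the part of this offset in the 11 was not tested. Csf1, the macrophage growth factor M-CSF, read 7.13, 7.15 and 7.65 in SMC-IRF9-TG and 7.23, 5.31 and 6.31 in NTG (difference 1.03, adjusted p = 0.213), with NTG pool 1 inside the SMC-IRF9-TG range. Ctf1, the gp130 ligand cardiotrophin, differed by 0.39 (adjusted p = 0.485).

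Of 54 other receptors, 2 rose and 0 fell (7 higher and 6 lower at an unadjusted p under 0.05), with a median of -0.11 against 1.04 for the 16 receptors above. Their median level was 3.43, against 5.23 for those 16, so the medians come from unlike signal. Csf1r, the receptor of M-CSF and also one of the macrophage markers, read 10.04, 9.23 and 9.63 in SMC-IRF9-TG, against 5.87, 6.00 and 6.36 in NTG, an 11.8-fold rise (difference 3.56, standard error 0.26, adjusted p = 6.7e-04). Tnfrsf11b, which encodes the soluble RANKL decoy osteoprotegerin, read 7.64, 7.77 and 7.65 in SMC-IRF9-TG, against 3.88, 4.71 and 4.41 in NTG, a 10.2-fold rise (difference 3.36, standard error 0.24, adjusted p = 6.7e-04). The groups lay far apart for both, and both passed with each pool left out in turn, up to an adjusted p of 0.00972 for Csf1r and 0.00731 for Tnfrsf11b. The other Csf1r probe sets rose too (3.66 and 1.78), but the second of Tnfrsf11b, 1418309_at, differed by 0.26 (adjusted p = 0.557), and the average of its 2 probe sets by 1.81 (adjusted p = 0.00488).

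Across the 10 genes that passed, Il1b, Il10 and Il13ra1 kept their call without any one of the 6 pools. The count of genes that rose was 2 without NTG pool 1 or without SMC-IRF9-TG pool 3, 3 without SMC-IRF9-TG pool 1 and 4 without SMC-IRF9-TG pool 2, against 8 with all pools. With the NTG pools of high Xist as a block, 1 gene rose (Il13ra1) and 1 fell (Il10, adjusted p = 0.0496), and with the SMC-IRF9-TG pools of low poly-A controls as a block limma passed none. The first block leaves NTG pool 3 alone beside the SMC-IRF9-TG pools and the second leaves SMC-IRF9-TG pool 3 alone beside the NTG pools, so that each comparison then rests on 1 pool of that group.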

How the data were processed

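The authors deposited log2 levels per probe set. The submitters' notes name RMA and Affymetrix Expression Console for this step without versions that could be read here. RMA as usually run subtracts background, brings arrays to one distribution and merges the probes of each set, but the deposited columns differ in distribution, so how they were scaled is not known. Low values are compressed, and whether a probe set was detected is unknown. All 6 arrays were used as deposited. Of 45101 probe sets, 64 controls were left out and 45037 tested without a filter. GEO's platform annotation gives 1 gene to 34945 probe sets.

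Groups came from the labels. They were compared with limma 3.58.1 in R 4.3.3 (lmFit and eBayes, 2-sided, Benjamini-Hochberg adjustment over all probe sets). The methods give a t-test for the study and no test for the array, so that t-test was an alternative. Promoters came from RefSeq, and tables and figures were made with Python 3.11.15, numpy 2.4.6, pandas 2.3.3 and matplotlib 3.10.9. The tests were tried on simulated data first. Genes were named by rule: each that passed, each with another probe set that passed, those not passing with a difference of at least 1, and in each further list up to 4 that passed or else the 2 of highest level. The remaining genes of the set are given by name, and those described outside the rule with their pools' values were chosen after these were seen. The genes and lists were chosen with earlier results of these data known. Alternatives were other scalings, floors, filters, variance priors, array weights, blocks, probe-set choices and leaving out each pool. The next brightest probe set of single named genes was added after seeing the data.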

Additional observations from a re-analysis of the deposited data

How the results depend on the processing

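Among the 10 genes that passed and the 5 that differed by at least 1 without passing, the sign changed only with the next brightest probe set, for Il10rb (-0.53), Tnfsf10 (0.14), Il1r1 (-0.62), Osmr (-0.49) and Tnfaip3 (-0.01), as it did in the further lists for Pycard (-0.69) and Ptpn11 (-0.63). Counts are given as genes of the set that rose and fell, then all probe sets, against 8 and 2 genes and 1069 and 168 probe sets. Quantile normalization gave 5 and 2 genes with 547 and 153 probe sets and lost Il10rb, Ifngr1 and Csf2rb, and raising values to the lower quartile of their array gave 5 and 1 with 673 and 211. Centring on the median gave 10 and 1 with 1497 and 111, and it moved the median difference of all probe sets to -0.03 from -0.13. Leaving out dim probe sets gave 9 and 1 genes, but Il6, Il10 and Il10ra were then not tested, and Il1r1, Relb and Tnfaip3 joined those that rose. A trended and robust prior gave 7 and 1, averaging a gene's probe sets 6 and 1, and the next brightest probe set 2 and 0. The methods' t-test gave 0 and 0 with 0 and 1 probe sets after adjustment, and 16 and 2 with 3558 and 4806 before it. Blocks for Xist gave 1 and 1 with 174 and 18, and for poly-A controls 0 and 0 with 52 and 3. With one pool left out, 2 to 8 genes rose and 1 to 2 fell, and 297 to 1268 probe sets rose and 23 to 583 fell, fewest without SMC-IRF9-TG pool 2 and most without NTG pool 3. The further lists held 9 genes that rose and 0 that fell, against 5 by quantile normalization (Ccnd1, Myd88, Nfkbie and Pycard were lost), 4 with the Xist block, 2 with the poly-A block, 0 by the t-test (24 and 20 unadjusted), and 4 to 11 rising and 0 to 1 falling with one pool left out.

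The labels do not say whether replicate numbers pair the pools. Deviations of same-numbered pools correlated at -0.150, -0.001 and 0.027, and those of differently numbered pools from -0.125 to 0.127. With 3 pools in each group these values cannot decide it. With the number as a replicate block, 6 genes rose, with Ifngr2 newly among them, and 1 fell (659 and 71 probe sets). Il6, Il10rb, Ifngr1 and Tnfsf10 then lost their call by limma (adjusted p from 0.074 to 0.09). Ptpn11 turned negative by quantile normalization (-0.12), by averaging probe sets (-0.35) and without NTG pool 3 (-0.06) or SMC-IRF9-TG pool 1 (-0.01). Ptpn2 did so by quantile normalization (-0.23), the Xist block (-0.13), the poly-A block (-0.17) and without NTG pool 1 (-0.25), SMC-IRF9-TG pool 1 (-0.01) or pool 2 (-0.02), and Ctf1 without NTG pool 2 (-0.01). With one pool left out these genes ranged up to 0.36 for Ptpn11, 0.25 for Ptpn2 and 0.65 for Ctf1, and none of the 3 passed. The cause was not tested. Signal over background limits Il6, Il10, Il10ra and the 4 ligands near background in both groups, whose sizes cannot be read.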
